A study of Mus musculus with 3 samples.

Results

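Natural killer (NK) cells were examined in single-cell RNA-seq libraries of mouse calvaria, the roof of the skull. A barcode was taken as an NK cell when it held at least 2 UMIs (unique molecular identifiers, each counted as 1 captured transcript) of Ncr1, Klrb1c and Klre1 together. It also had to hold no UMI of the T-cell receptor subunits Cd3e, Cd3d and Cd3g, at least 1 UMI of Ptprc, which encodes CD45, at most 1 UMI of the B-cell gene Cd79a, no UMI of the macrophage gene Csf1r, and fewer than 5 UMIs of the keratins Krt8 and Krt18 per 10000. The rule took 344 of 23831 kept barcodes, namely 141 in the control library, 130 in the scratch-negative library and 73 in the scratch-positive library. Values given in threes below follow that order.

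All mice were C57BL/6 and 8 weeks old. The control mice bore no tumour. In the other groups HNM007, a mouse squamous carcinoma line, was implanted onto the calvaria, and the tissue was taken 1 week later after the tumour had been excised. In the scratch-positive group, labelled invasive, a needle had first been drawn over the bone to strip its periosteum; in the scratch-negative group, labelled pre-invasive, it had not. Live CD45+ and CD45- cells were mixed in equal parts before loading, so the balance of immune to other cells does not reflect the tissue. Each group is 1 library, and the number of mice behind it is not given in the sources used here, so no difference below has a replicate check and no p-value is given.

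NK cells are innate lymphocytes that kill infected or transformed cells by releasing perforin and granzymes, and that secrete interferon-gamma and chemokines. They read targets through a balance of inhibitory receptors for MHC class I, such as the Ly49 family, and activating receptors such as NKG2D and NKp46. The cytokines IL-12, IL-15, IL-18 and type I interferon prime them, and bone marrow is a main site of their development.

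The members carried NK transcripts. All 10 genes of the NK marker list were detected in each library, and together they reached 8651, 11524 and 12209 CPM, where CPM is the UMIs of a gene scaled to 1000000 UMIs of the NK cells. In all other kept cells the same sum was 142, 144 and 34.4 CPM. The list includes the rule genes Ncr1, Klrb1c and Klre1, so their part in this difference was fixed by the choice of members. Gzma, a granzyme that the rule did not use, had a UMI in 98.6%, 98.5% and 97.3% of members. The T-cell list summed to 101, 84.4 and 87.6 CPM, above the 43.2, 24.4 and 12.8 CPM of all other kept cells. Its genes Cd3d, Cd3e and Cd3g were held at 0 by the rule, and Cd4, Cd8a, Cd8b1 and Cd5, which the rule did not use, were at 0 too. Its other genes Trac, Cd28 and Trdc were detected in each library, and Cd6 and Bcl11b in the control and scratch-negative libraries. The list for type 2 innate lymphoid cells summed to 34.4, 33.2 and 52.6 CPM, against 5.93, 46.8 and 341 CPM in all other kept cells. Of the markers of type 3 innate lymphoid cells, Il22, Il17a, Il23r and Ccr6 were at 0 in all 3 libraries. At the edge of the rule, the 5, 9 and 12 members with exactly 2 UMIs of the rule genes had Gzma in 100%, 88.9% and 100% of cells. The 30, 37 and 11 barcodes with 1 such UMI that met every other condition had it in 16.7%, 32.4% and 54.5%.

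Some members also carried abundant transcripts of another cell type. Here a member is called mixed when, per 10000 of its UMIs, it held at least 500 of the neutrophil genes S100a8 and S100a9, 50 of the collagens Col1a1, Col1a2 and Col3a1, 30 of the MHC class II genes Cd74, H2-Aa and H2-Ab1, or 20 of the granule enzymes Elane and Mpo of early myeloid cells. These thresholds were set after the data were seen. Mixed barcodes numbered 11, 18 and 6, and they held 28.0%, 39.3% and 34.0% of the NK UMIs. Their median UMI counts were 26652, 16897 and 20920.5, against 4538, 4990.5 and 3268 over all members. The neutrophil list summed to 94606, 97099 and 102806 CPM with them and to 6975, 6665 and 3121 CPM without them. The scratch-negative members carried 2510 CPM of fibroblast and osteoblast markers with mixed barcodes and 361 CPM without. The dendritic-cell list in the scratch-positive members was 894 CPM with and 60.7 CPM without, and there Flt3, Xcr1, Clec9a, Cd209a and Siglech were at 0. These lists include genes that define a mixed barcode, so their part in each drop was fixed by the definition. The 130, 112 and 67 members that were not mixed are called unmixed below, and the main results are given for them as well. The control barcode with the most UMIs was not mixed. It held 151297 UMIs, 13.0% of the control NK total, of which 107 were Mki67 or Top2a. Leaving it out was added as a setting after the data were seen. Its values stand beside many of the main results that it changed, but not all. The largest tumour-library barcodes were not left out in the same way.

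**Figure D1:**
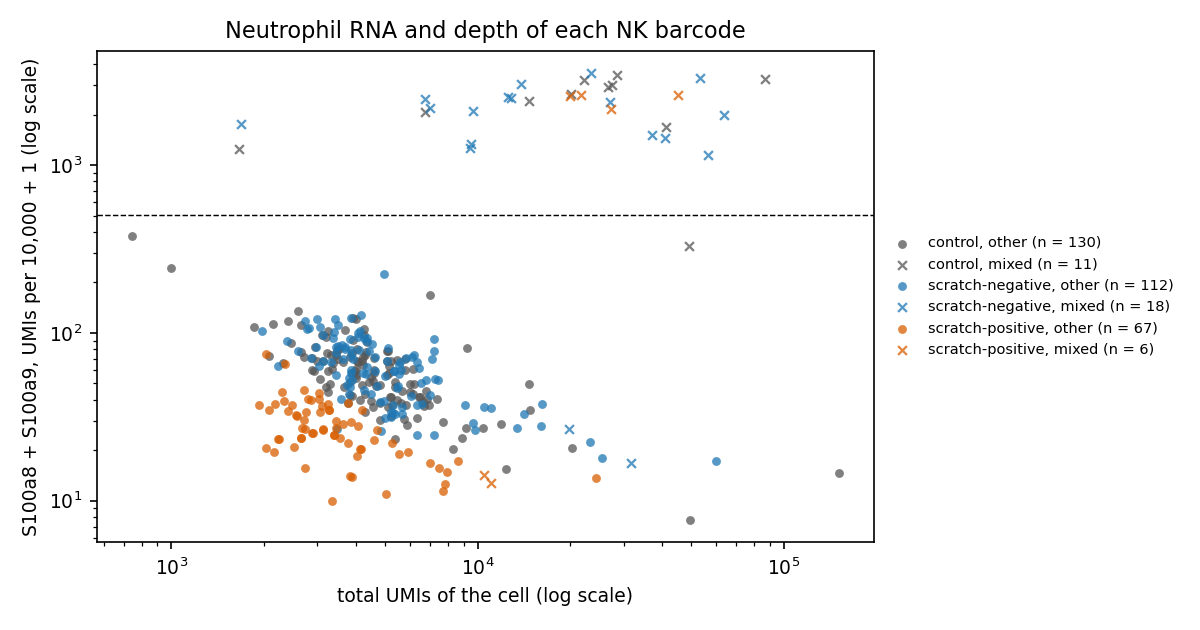
Each point is 1 NK barcode. Its total UMIs are on the x axis and its S100a8 and S100a9 UMIs per 10000 plus 1 on the y axis. Both axes are log scales, colours mark the libraries, and crosses mark mixed barcodes. The dashed line marks the neutrophil threshold for a mixed barcode. In the 3 libraries 10, 16 and 4 barcodes lie at or above that line, mostly at high UMI counts.

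The NK share of immune cells had lower values in the tumour libraries, with intervals that met or overlapped those of the control. NK cells were 2.39% of the Ptprc-positive cells in the control (141 of 5895; exact 95% Clopper-Pearson interval 2.02% to 2.81%). They were 1.89% in the scratch-negative library (130 of 6895; 1.58% to 2.23%) and 1.61% in the scratch-positive library (73 of 4537; 1.26% to 2.02%). The scratch-negative interval overlaps that of the control, the scratch-positive and control intervals meet at 2.02%, and those of the tumour libraries overlap widely. The order of the tumour libraries depended on depth. When every kept cell was thinned to 2000 UMIs before the rule was applied, the shares were 2.94%, 2.11% and 2.26%, with overlapping intervals of 2.42% to 3.54%, 1.69% to 2.61% and 1.63% to 3.05%. These intervals, like all those below, cover counting error only and not the spread between mice.

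Levels were compared as the ratio of CPM in 2 libraries, with an exact binomial 95% interval, for genes with at least 10 UMIs in the pair. A gene is called higher or lower when the ratio reached 1.5-fold and its whole interval lay on that side of 1. Scratch-negative against control, 6.46% of 9108 genes were higher and 5.08% lower among all members, and 3.65% and 5.36% of 8025 among unmixed members. Scratch-positive against control, 6.33% of 8153 genes were higher and 6.07% lower among all members, and 5.86% and 5.67% of 7360 among unmixed members. Between the tumour libraries 4.07% of 8148 genes were higher in scratch-positive and 4.41% lower, and 3.77% and 3.09% of 6737 among unmixed members. These shares are the background for the counts below. Scaling by the median of gene ratios in place of total UMIs moved the scratch-positive to control comparison by -0.11 on the log2 scale, and 35.1% in place of 51.0% of its calls were then higher. Between the tumour libraries the same scaling took that split from 48.0% to 34.5%. Of the genes higher in scratch-negative than in control NK cells, 190 were called both ways, 32.3% of those called among all members and 64.8% of those called among unmixed members. For genes higher in scratch-positive than in control the shared calls were 280, or 54.3% and 65.0%.

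Of the granule genes, Gzmb differed most from the control in both tumour libraries. Gzmb, which encodes granzyme B, a protease that starts apoptosis in the target cell, had 219, 1206 and 435 UMIs in the NK cells, or 188, 1083 and 1089 CPM. Its level was 5.75-fold that of the control in scratch-negative NK cells (4.97 to 6.67) and 5.78-fold in scratch-positive NK cells (4.9 to 6.83). The scratch-positive to scratch-negative ratio was 1.01 (0.899 to 1.12), and 0.628 among cells without Mki67 or Top2a UMIs. A Gzmb UMI was found in 47.5% of control, 83.1% of scratch-negative and 80.8% of scratch-positive NK cells, so both the share of cells and the amount differed. Among unmixed members the ratios were 6.42 and 6.01. The gene lies at chr14:56258838-56262260 on the minus strand of mm10, and UMIs were counted at its 3′ end. Over the 14 alternative settings the ratio to control ranged from 4.85 to 7.20 and from 3.35 to 6.06.

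Gzma, which encodes granzyme A, was at 4782, 7280 and 7914 CPM, 1.52-fold and 1.66-fold the control. Thinning each cell to 2000 UMIs brought those ratios to 1.37 and 1.33, and leaving out the largest control barcode to 1.33 and 1.45, all below the threshold. Prf1, the pore-forming protein that lets granzymes into the target, was at 240, 335 and 373 CPM, 1.39-fold (not called) and 1.55-fold (called). Its scratch-positive ratio was 1.08 after thinning and 1.36 without the largest control barcode, so that call was lost in both. Serpinb9 and Serpinb6b are serine protease inhibitors of the killer cell's own cytosol. Serpinb9, the inhibitor of granzyme B, was at 256, 420 and 488 CPM, 1.64-fold (1.42 to 1.91) and 1.91-fold (1.59 to 2.3). Its scratch-negative ratio was 1.44, and the call lost, without the largest control barcode. Serpinb6b was at 311, 444 and 663 CPM. Its scratch-negative ratio of 1.43 was not called, and its scratch-positive ratio of 2.13 (1.81 to 2.51) was called under every setting run. Nkg7, a granule membrane protein needed for degranulation, was called in neither tumour library (1.26-fold and 1.17-fold). Unc13d, which primes granules for fusion, was lower in the scratch-negative library (39 and 20 UMIs, ratio 0.54). Of the 16 tested genes of the granule list, 4 were higher and 1 lower in scratch-negative against control, with a median log2 ratio of 0.39 against -0.03 over all genes. In scratch-positive against control 6 of 14 were higher and none lower, with a median of 0.41 against -0.04. Among unmixed members 6 of 16 were higher and 1 lower in scratch-negative and 7 of 14 higher in scratch-positive, with medians of 0.50 and 0.75. Leaving out the largest control barcode, the higher calls were 2 and 4, with medians of 0.21 and 0.35.

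**Figure D2:**
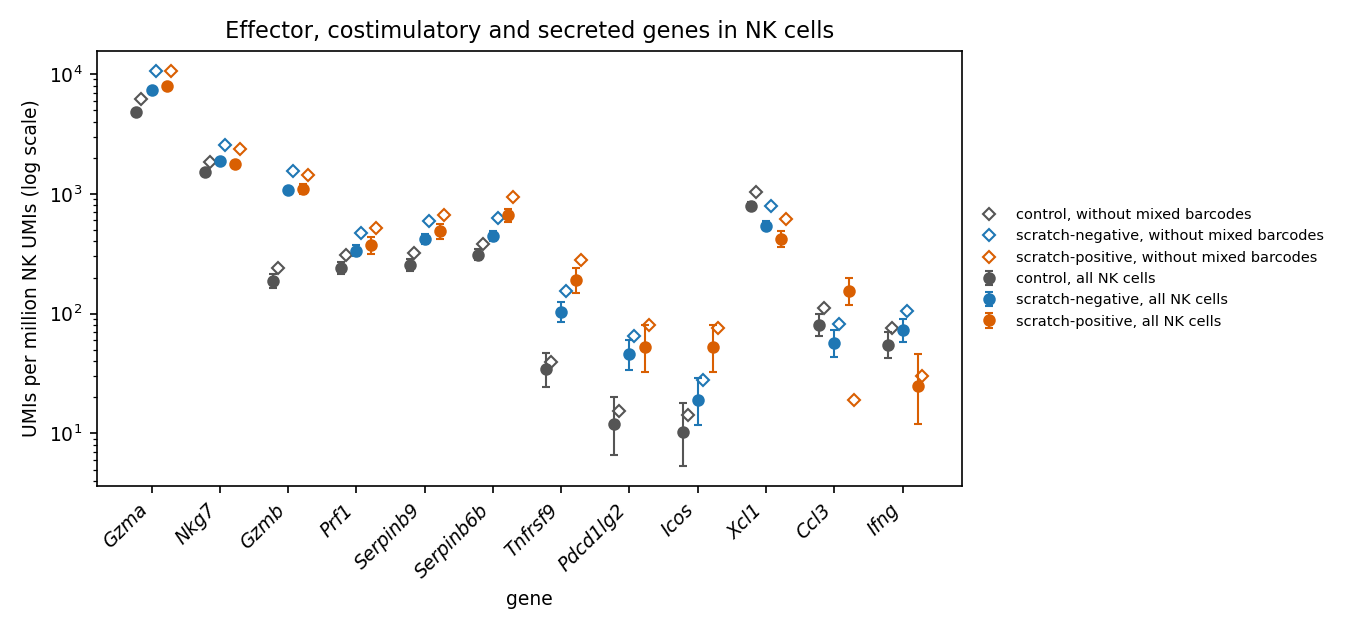
Levels of 12 NK genes in CPM on a log axis, by library; filled points are all members with exact Poisson 95% intervals, and open diamonds are unmixed members. Gzmb and Tnfrsf9 are higher in both tumour libraries than in the control. Xcl1 has lower values in both, and was called in the scratch-positive library.

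Of the 8 tested checkpoint and costimulatory genes, 2 were higher in scratch-negative and 5 in scratch-positive against control, and none was lower. The medians were 0.34 and 1.17 on the log2 scale. Among unmixed members 2 and 4 were higher, and without the largest control barcode 1 and 4, with 1 lower in scratch-negative. Tnfrsf9, which encodes 4-1BB, a costimulatory receptor displayed on activated lymphocytes, had 40, 115 and 76 UMIs, or 34.4, 103 and 190 CPM. It was 3.0-fold (2.08 to 4.41) and 5.53-fold (3.72 to 8.32) the control, and 3.94-fold and 7.11-fold among unmixed members. Its level in scratch-positive exceeded that in scratch-negative NK cells 1.84-fold, but the ratio was 0.997 when cells were thinned to equal depth. Pdcd1lg2, the PD-1 ligand PD-L2, which is not on that list, had 14, 51 and 21 UMIs and was 3.8-fold (2.07 to 7.44) and 4.36-fold (2.12 to 9.27) the control. Cd274, the ligand PD-L1, was rarer at 16, 30 and 18 UMIs, 1.96-fold and 3.27-fold. A single scratch-negative cell held 12 of the 30, and the scratch-negative ratio was 1.30 with doublets removed and 1.70 without the largest control barcode, neither of them called. Tnfrsf18, the costimulatory receptor GITR, and Icos were called in the scratch-positive library alone. Tnfrsf18 was at 83.5, 108 and 153 CPM, 1.83-fold in scratch-positive. Icos had 12, 21 and 21 UMIs, 5.09-fold in scratch-positive (2.39 to 11.3), and 2.79-fold between the tumour libraries. A single scratch-positive cell held 7 of its 21 UMIs, and at equal depth the ratio of 2.72 was not called.

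Genes of the NF-kB pathway, a route by which 4-1BB and other receptors of its family signal, were higher in both tumour libraries. Traf1, an adaptor that binds 4-1BB, was at 62.8, 126 and 148 CPM, 2.0-fold (1.5 to 2.69) and 2.35-fold (1.64 to 3.36). Nfkbiz, an inducible nuclear cofactor of NF-kB, was at 50.8, 119 and 110 CPM, 2.35-fold and 2.17-fold. Icam1, an adhesion molecule, was at 42.2, 95.2 and 97.6 CPM, 2.26-fold and 2.31-fold. At equal depth the Nfkbiz share of unmixed NK cells, 11.8%, 19.8% and 19.7%, was close to that of neutrophils, 12.4%, 16.5% and 16.6%, while Icam1 at 11.0%, 20.7% and 19.7% stood above their 1.14%, 3.37% and 5.77%. These values put the tumour libraries side by side and the control below both. Nfkbie, an inhibitor that NF-kB induces, was 2.24-fold and 3.16-fold the control. Of 13 tested genes of this list, 6 were higher in scratch-negative and 7 in scratch-positive, none was lower, and the medians were 0.56 and 0.86 on the log2 scale. Among unmixed members the counts were 7 and 7, with medians of 0.69 and 0.74. Without the largest control barcode they were 7 and 6, with medians of 0.63 and 0.74. Gadd45b, a stress-inducible gene that NF-kB can also switch on, was at 62, 254 and 215 CPM, 4.10-fold and 3.47-fold the control.

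Ifng, which encodes interferon-gamma, had 64, 81 and 10 UMIs, or 55.1, 72.7 and 25 CPM. Its scratch-negative ratio to control was 1.32 (0.94 to 1.86), and its scratch-positive ratio was 0.45 (0.21 to 0.89). Among unmixed members these were 1.39 and 0.40. Between the tumour libraries Ifng was 2.91-fold lower in scratch-positive NK cells. Xcl1, the chemokine that attracts cross-presenting dendritic cells, was at 796, 542 and 420 CPM. The scratch-positive ratio of 0.53 (0.45 to 0.62) was called, and under every setting run. The scratch-negative ratio of 0.68 was not called, but was 0.594 and called without the largest control barcode. Ltb, lymphotoxin beta, was lower in the scratch-negative library (103 and 55 UMIs, ratio 0.56). Ccl5, a chemokine for T cells and monocytes, was at 10095, 10072 and 12574 CPM, and was called in neither. Fasl, the death ligand of the Fas receptor, was at 115, 128 and 168 CPM and was likewise called in neither over all members. Of the death ligand and cytokine list, 0 of 10 tested genes were higher and 1 lower in scratch-negative, and 3 of 9 were higher and 2 lower in scratch-positive. Among unmixed scratch-positive members, 2 of 8 were higher and 3 lower. Without the largest control barcode 3 of 10 were lower in scratch-negative, and 3 of 9 were higher and 3 lower in scratch-positive.

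Ccl3 and Ccl4, inflammatory chemokines that NK cells share with neutrophils, turned on the mixed barcodes. Ccl3 was 1.92-fold the control in scratch-positive NK cells over all members, with 94 and 62 UMIs, but 5 of those 62 UMIs lay in unmixed cells and the unmixed ratio was 0.17 (0.05 to 0.41). The 5 highest control cells held 64 of the 94 control UMIs of Ccl3. Ccl4 was 1.77-fold over all members and 0.85-fold among unmixed members. Cxcl10, a chemokine induced by interferon, differed in another way. It had 35, 238 and 47 UMIs and was 7.09-fold and 3.91-fold the control, 7.78-fold and 3.81-fold without mixed barcodes. A UMI was seen in 5.67%, 16.9% and 17.8% of NK cells, and the 5 highest cells of each library held 32, 171 and 39 of its UMIs. The level of Cxcl10 thus describes a few cells in each library.

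Interferon-stimulated genes were higher in scratch-negative NK cells, and in the scratch-positive library their level depended on the mixed barcodes. Type I interferon induces them through the factor ISGF3, which binds the interferon-stimulated response element in their promoters. In scratch-negative NK cells 9 of 22 tested genes of the type I interferon list were higher than in the control and none was lower, with a median log2 ratio of 0.81. Among unmixed members 8 of 16 were higher, with a median of 0.75 against -0.07 over all genes. Without the largest control barcode 8 of 22 were higher, with a median of 0.75. Isg15, a ubiquitin-like modifier, had 57 UMIs in the control and 122 in scratch-negative, or 49.1 and 110 CPM, a ratio of 2.23 (1.62 to 3.11). Bst2, the antiviral membrane protein tetherin, was at 68.9 and 139 CPM, 2.02-fold. Zbp1, a sensor of Z-form nucleic acids, was at 46.5 and 101 CPM, 2.18-fold. Xaf1, a pro-apoptotic interferon target, had 17 and 45 UMIs, 2.76-fold. These 4 genes were called higher in scratch-negative NK cells under every setting run. At equal depth Bst2, Zbp1 and Xaf1 were seen in a larger share of scratch-negative NK cells than of neutrophils, but Isg15 was not (15.3% against 16.5%), and the part of free RNA in its level was not tested.

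In scratch-positive NK cells the same list gave 5 of 17 genes higher over all members, but 0 of 13 higher and 2 lower among unmixed members. The medians were 0.53 and -0.14 on the log2 scale. Without the largest control barcode 4 of 17 were higher over all other members, with a median of 0.49. Isg15 had 41 UMIs in the scratch-positive members, of which 1 mixed cell held 25. In unmixed members it had 53, 90 and 3 UMIs, and the scratch-positive ratio to control went from 2.09 to 0.18 (0.04 to 0.55). The 5 highest unmixed control cells held 38 of those 53 Isg15 UMIs. Bst2 had 80, 155 and 18 UMIs over all members and 77, 112 and 10 in unmixed ones, a scratch-positive ratio of 0.65 and 0.41. The 5 highest unmixed control cells held 45 of its 77 UMIs, and the largest control barcode 22. Ifi27l2a was 5.82-fold the control over all scratch-positive members, while unmixed members held 16, 28 and 1 of its UMIs. Irf7, the factor that amplifies the interferon response, was 2.73-fold over all scratch-positive members and 1.08-fold among unmixed members. Scratch-positive against scratch-negative, 0 of 13 genes were higher and 4 lower among unmixed members, with a median of -0.79 on the log2 scale.

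**Figure D3:**
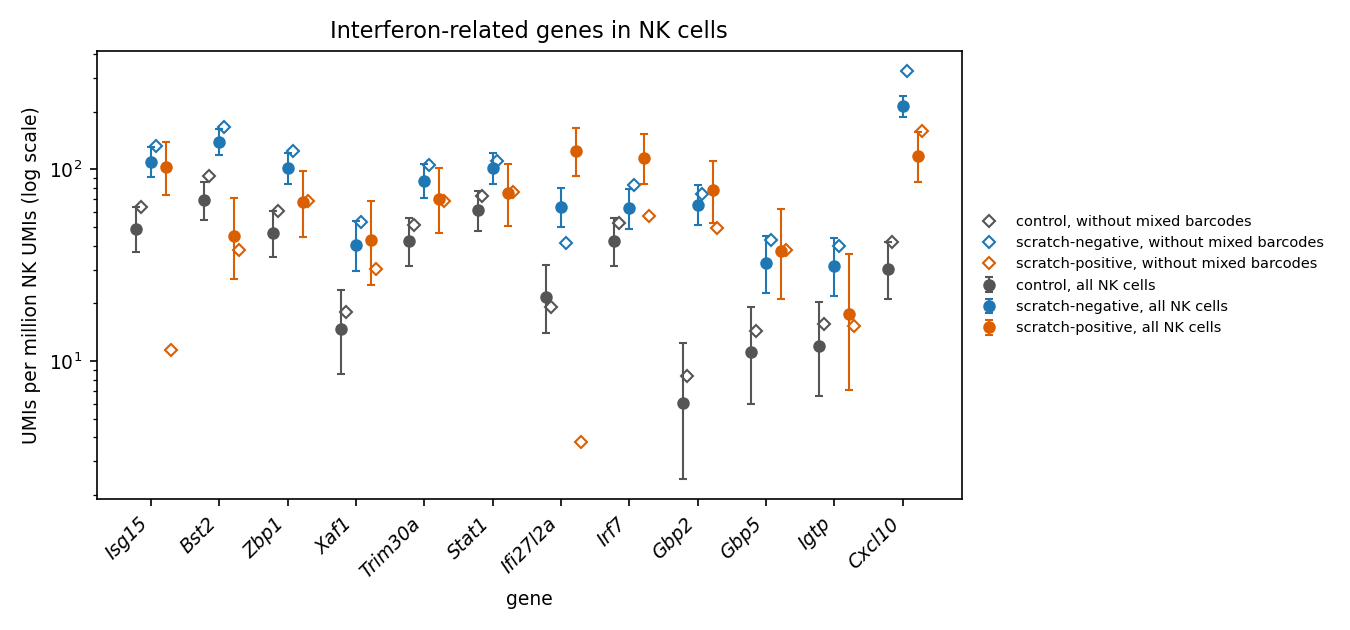
Levels of 12 interferon-induced genes in CPM on a log axis, by library; filled points are all members with exact Poisson 95% intervals, and open diamonds are unmixed members. In the scratch-positive library the diamonds of Isg15 and Ifi27l2a lie far below the filled points, while in the scratch-negative library both symbols lie above the control.

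The guanylate-binding proteins and related GTPases, which interferon-gamma induces to attack pathogen vacuoles, showed a smaller gene count. Of the list, 3 of 12 tested genes were higher in scratch-negative and 3 of 10 in scratch-positive, none was lower, and the medians were 0.71 and 0.67. Among unmixed members 4 of 11 and 2 of 10 were higher and none was lower, with medians of 0.76 and 0.72. Gbp2 had 7, 73 and 31 UMIs, 10.9-fold (5.02 to 28) and 12.9-fold (5.56 to 34.7). Its highest single cells held 24 of the 73 UMIs and 16 of the 31. Unmixed members held 7, 50 and 13 Gbp2 UMIs, and the highest unmixed scratch-positive cell held 2. Over the alternative settings the Gbp2 ratio to control ranged from 3.57 to 11.2 in scratch-negative and from 3.37 to 13.8 in scratch-positive. Among unmixed cells thinned to 2000 UMIs, 3.15%, 7.21% and 9.09% of NK cells had a Gbp2 UMI, against 0.966%, 7.59% and 8.84% of neutrophils, so in the tumour libraries the share did not exceed that of neutrophils by more than the counting error, and the part of free RNA was not tested. Gbp5 had 13, 36 and 15 UMIs, 2.89-fold and 3.36-fold. Igtp had 14, 35 and 7 UMIs and was 2.61-fold in scratch-negative and not called in scratch-positive.

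The promoters of 4 genes are shown. Isg15, Gbp2 and Gbp5 hold matches to interferon or NF-kB motifs, and Gzmb is the granule gene of largest difference, with a match to the AP-1 motif alone. Each is the 250 bases before 1 annotated start, 5′ to 3′ on the gene's strand, from RefSeq on GRCm38.p6. Isg15 lies at chr4:156200819-156201068 on the minus strand, Gbp2 at chr3:142620413-142620662 and Gbp5 at chr3:142496684-142496933 on the plus strand, and Gzmb at chr14:56262335-56262584 on the minus strand. Capitals mark matches to the interferon-stimulated response element (GAAA, any 2 bases, GAAA), an NF-kB motif (GGG, any 2 bases, TTTCC), each on either strand, and an AP-1 motif (TGANTCA).
Isg15: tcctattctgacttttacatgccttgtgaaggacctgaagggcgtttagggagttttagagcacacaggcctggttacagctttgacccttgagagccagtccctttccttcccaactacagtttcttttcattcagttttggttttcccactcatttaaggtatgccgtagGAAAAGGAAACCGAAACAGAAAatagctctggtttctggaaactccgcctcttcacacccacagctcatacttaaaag
Gbp2: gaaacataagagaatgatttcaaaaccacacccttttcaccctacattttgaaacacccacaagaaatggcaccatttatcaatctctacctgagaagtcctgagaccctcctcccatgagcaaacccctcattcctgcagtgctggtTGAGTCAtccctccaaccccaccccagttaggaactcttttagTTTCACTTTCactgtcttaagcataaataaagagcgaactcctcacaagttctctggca
Gbp5: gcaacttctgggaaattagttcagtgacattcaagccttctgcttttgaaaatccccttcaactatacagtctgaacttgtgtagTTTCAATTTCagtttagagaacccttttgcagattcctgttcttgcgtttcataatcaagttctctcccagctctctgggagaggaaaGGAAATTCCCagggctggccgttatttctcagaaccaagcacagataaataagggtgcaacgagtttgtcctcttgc
Gzmb: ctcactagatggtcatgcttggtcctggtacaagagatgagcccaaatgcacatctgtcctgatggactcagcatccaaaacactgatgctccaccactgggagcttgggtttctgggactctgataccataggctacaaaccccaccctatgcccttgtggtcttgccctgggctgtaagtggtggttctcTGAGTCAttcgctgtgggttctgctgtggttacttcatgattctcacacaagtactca
Isg15 held 3 overlapping matches to the response element that begin 78, 72 and 66 bases before the start. Gbp2 held 1 at 59 bases, with an AP-1 match at 102, and Gbp5 held 1 at 165 bases with an NF-kB match at 77. The Gzmb window held an AP-1 match at 58 bases and none of the other motifs.

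Over all 32851 promoters of the table, 2.98% held the response element, 1.41% the NF-kB motif and 6.75% the AP-1 motif, on either strand. Counting a gene when any of its promoters matched, these shares were 3.46%, 1.65% and 7.82% of 27025 genes. On that count 9 of 19 type I interferon list genes in the table held the response element, among them Bst2 and Trim30a, and so did 9 of 10 GTPase genes. The NF-kB list had none of its 10 genes with the response element and 4 with the NF-kB motif, namely Nfkbia, Nfkb2, Rel and Tnfaip3. Of the granule list 4 of 20 genes held the response element and none the NF-kB motif. Gzmb was the only 1 of these 20 with the AP-1 motif. That motif was in 5 of 19 type I interferon, 2 of 10 GTPase and 3 of 10 NF-kB list genes. A match describes letters in this window and not a bound site.

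The rule genes Ncr1, Klrb1c and Klre1 chose the cells and are not compared. Klrk1, which encodes NKG2D, was at 370, 344 and 398 CPM and was called in neither tumour library. Of 23 tested activating receptors and adaptors, 0 were called either way in scratch-negative against control, and 4 were higher and 3 lower in scratch-positive. Among unmixed members 1 was higher in scratch-negative, and 3 were higher and 1 lower in scratch-positive. Without the largest control barcode 2 were lower in scratch-negative, and 2 were higher and 3 lower in scratch-positive. Hcst, the adaptor DAP10 through which NKG2D signals, was at 538, 464 and 335 CPM, a scratch-positive ratio of 0.62 (0.51 to 0.75), and 0.66 among unmixed members. Sh2d2a, an adaptor of lymphocyte signalling, was at 238, 279 and 451 CPM, 1.90-fold in scratch-positive. Hcst and Sh2d2a thus differed in opposite directions in that library. The median log2 ratio of the activating list was 0.05 there and -0.06 with median-of-ratios scaling.

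The Ly49 receptors are encoded by near-identical Klra genes, so reads may be split between copies and single genes are uncertain. The inhibitory Klra7 was at 312, 390 and 280 CPM and Klra9 at 250, 167 and 250 CPM. The activating Klra4 was at 575, 480 and 508 CPM and Klra8 at 448, 445 and 365 CPM. None of these 4 was called against control in either tumour library. Of 13 tested inhibitory receptors, 0 were called in scratch-negative, and 2 were higher in scratch-positive, Klra3 and Klrb1b. Klra3 was called higher in scratch-positive (112, 158 and 188 CPM, 1.68-fold), but its ratio was 1.49 and not called without the largest control barcode. Without that barcode 2 inhibitory receptors were lower in scratch-negative, Klra9 at 0.582 among them. Among unmixed members 1 of 12 was higher in scratch-negative and 2 of 11 in scratch-positive. After thinning of unmixed members to 2000 UMIs, 72.4%, 81.1% and 84.8% of NK cells had a UMI of an inhibitory Ly49 gene, and 66.1%, 73.0% and 69.7% of an activating one. Neutrophils had them in at most 0.132% and 1.32% of cells in any library.

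Among transcription factors, Irf8, which NK cells use during antiviral expansion, had 464, 679 and 364 UMIs, or 399, 610 and 911 CPM, 1.53-fold (1.35 to 1.72) and 2.28-fold (1.98 to 2.62). Among unmixed members its ratios were 1.70 and 2.50. The scratch-negative ratio was 1.35 and not called without the largest control barcode, while the scratch-positive call held in every setting. Between the tumour libraries its ratio was 1.49 (1.31 to 1.7). Eomes and Tbx21, the T-box factors that fix NK identity, were called in neither tumour library, at 207, 172 and 215 CPM and at 41.3, 44 and 45.1 CPM. Nfil3, needed for NK development, was 1.56-fold and 2.06-fold the control, and its scratch-negative call was lost among unmixed members (1.49) and without the largest control barcode (1.38). Tcf7, typical of early NK cells, was lower in the scratch-negative library (57 and 31 UMIs, ratio 0.57). Of 21 tested factors, 4 were higher and 1 lower in scratch-negative, and 4 higher and none lower in scratch-positive. Leaving out the largest control barcode gave 1 higher and 2 lower in scratch-negative, and 2 higher and 1 lower in scratch-positive.

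Genes downstream of IL-2 and IL-15 were higher in part. Pim1, a survival kinase, was at 155, 273 and 330 CPM, 1.76-fold and 2.13-fold. Bcl2, the survival factor that IL-15 maintains, was at 113, 146 and 235 CPM, 1.30-fold (not called) and 2.09-fold (1.58 to 2.74), and the scratch-positive call held in every setting. Socs2, a feedback inhibitor, had 3, 20 and 3 UMIs. Of this list 6 of 12 tested genes were higher in scratch-negative and 4 of 10 in scratch-positive, and none was lower. Without mixed barcodes the counts were 3 and 3, and without the largest control barcode 5 and 5. Of the cytokine receptors, 1 of 16 was higher and 1 lower in scratch-negative, and 2 of 14 were higher and 1 lower in scratch-positive. Among unmixed members 3 of 14 were higher and 1 lower in scratch-negative, and 4 of 14 were higher and 1 lower in scratch-positive. None of the cytokine receptors was higher in either library once the largest control barcode was left out. Ifngr1, the interferon-gamma receptor, was at 833, 861 and 1404 CPM, 1.69-fold in scratch-positive, and 1.49-fold and not called without the largest control barcode. Il18r1, the IL-18 receptor, was at 127, 98.8 and 80.1 CPM, a scratch-positive ratio of 0.63 (0.42 to 0.93). Pmepa1, a target and inhibitor of TGF-beta signalling, was at 86.9, 191 and 260 CPM, 2.20-fold (1.73 to 2.82) and 2.99-fold (2.26 to 3.98). It was called in both tumour libraries under every setting run, and the rest of the TGF-beta list gave 1 further call in each.

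S1pr1, the sphingosine phosphate receptor that draws lymphocytes out of tissue into blood, was lower in both tumour libraries. It had 93, 30 and 14 UMIs, or 80, 26.9 and 35 CPM. The ratios to control were 0.34 (0.22 to 0.51) and 0.44 (0.23 to 0.77), or 2.97-fold and 2.28-fold lower, and both were called in every setting. A UMI was seen in 36.2%, 13.8% and 15.1% of NK cells. It was the only one of 16 tested trafficking receptors called in scratch-negative against control over all members; among unmixed members Ccr7 was lower too, and without the largest control barcode 2 were lower. Itgb7, an integrin beta chain, was higher in the scratch-positive library at 55.1, 57.5 and 123 CPM, 2.23-fold.

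Of 12 early maturation genes 4 were lower in scratch-negative, Ltb, Tcf7, Il7r and Kit, and none was higher, with a median log2 ratio of -0.41 against -0.03 over all genes. Among unmixed members 4 were again lower, with a median of -0.23, and without the largest control barcode 6 were lower, with a median of -0.60. Of 10 late maturation genes 1 was lower in scratch-negative, namely Spn, which encodes CD43 (116, 59.3 and 85.1 CPM, ratio 0.51), with a list median of -0.15. Among unmixed members Zeb2, Spn and Ly6c2 were lower, with a median of -0.46. None of 8 late genes was called in scratch-positive, with a median of -0.34. Without the largest control barcode 1 late gene was lower there, with a median of -0.48, and 1 early gene was higher and 4 lower. Over all members 2 early genes were higher and 2 lower in scratch-positive. The higher ones were Emb, 1.66-fold (1.45 and not called without the largest control barcode), and Ctla2a, a cysteine protease inhibitor, at 723, 701 and 1369 CPM, 1.89-fold (1.7 to 2.11). Ctla2a was 1.95-fold higher in scratch-positive than in scratch-negative NK cells. The lower ones were Xcl1 and Kit, the latter with 50, 16 and 3 UMIs. The largest control barcode held 19 of the 50 Kit UMIs. Of the ILC1 and tissue residence list, 1 of 6 tested genes was higher and 1 lower in scratch-negative, and 2 of 4 were higher in scratch-positive. Among unmixed members 0 of 5 were higher and 1 lower in scratch-negative. In scratch-positive 1 of 4 was higher among unmixed members, with a median of 0.04 against 0.75 over all members. Without the largest control barcode 1 of 4 was higher there too. Rgs1, linked to tissue residence, was at 247, 297 and 400 CPM, 1.62-fold in scratch-positive.

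Pkm, the last enzyme of glycolysis, was at 182, 280 and 533 CPM, 1.54-fold and 2.94-fold (2.42 to 3.57), and 3.74-fold in unmixed scratch-positive members. Without the largest control barcode its scratch-negative ratio was 1.34 and not called. At equal depth 25.2%, 34.2% and 43.9% of unmixed NK cells had a Pkm UMI, against 58.4%, 64.3% and 73.2% of neutrophils. The neutrophil share also counts any Pkm RNA of their own, and the part of free RNA in NK cells was not tested. Of 22 tested hypoxia and glycolysis genes 7 were higher in scratch-positive, including Aldoa, Gapdh, Pgk1 and Pgam1, and 2 were lower, with a median of 0.27. In scratch-negative 4 of 23 were higher, Slc2a1, Hk2, Pkm and Slc16a3, and Hk1 was lower, with a median of 0.32. Without the largest control barcode 2 were higher and 1 lower there, with a median of 0.27. Among unmixed members 1 of 22 was higher and 1 lower in scratch-negative, and 6 were higher and 2 lower in scratch-positive, with medians of 0.03 and 0.25. The lower ones in scratch-positive were Hk1, a hexokinase with 62, 25 and 4 UMIs, and Higd1a, a mitochondrial protein at 247, 189 and 135 CPM. The ribosome biogenesis list turned on 1 control barcode. Of 17 tested genes, 5 were lower in scratch-negative and 6 in scratch-positive, with medians of -0.38 and -0.58 on the log2 scale. Ncl, nucleolin, was at 1090, 682 and 578 CPM, ratios 0.63 and 0.53. The largest control barcode held 620 of the 1266 control Ncl UMIs and 82 of the 185 of Nop58, a nucleolar protein of ribosome assembly. Without it the Ncl ratios were 1.07 and 0.904, none of the 17 genes was called in scratch-negative, and 2 were higher and 1 lower in scratch-positive. The medians were then 0.30 and 0.11.

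Proliferation was present in a minority of NK cells in each library. After thinning of unmixed members, 8.66%, 12.6% and 13.6% had a UMI of Mki67 or Top2a. In neutrophils, whose precursors divide, the shares were 19.8%, 22.2% and 26.2%, and the part of free RNA in the NK shares was not tested. None of 22 tested cell cycle genes was called in scratch-negative against control over all members; among unmixed members Mcm3 and Rrm2 were higher and Ccnb1 lower, and without the largest control barcode 3 were higher. In scratch-positive 4 were higher over all members, 0 among unmixed members and 6 without the largest control barcode. The MHC class I gene H2-T23, which encodes Qa-1, the ligand of NKG2A, was at 213, 214 and 97.6 CPM, a scratch-positive ratio of 0.46 (0.32 to 0.65). The other 13 genes of that list were not called there over all members. Immediate early and stress genes, which also respond to tissue dissociation, depended on mixed barcodes. Of 18 tested, 10 were higher in scratch-negative over all members and 1 among unmixed members. Hspa1a, a heat shock protein, had 21 and 193 UMIs over all members and 21 and 16 among unmixed members.

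**Figure D4:**
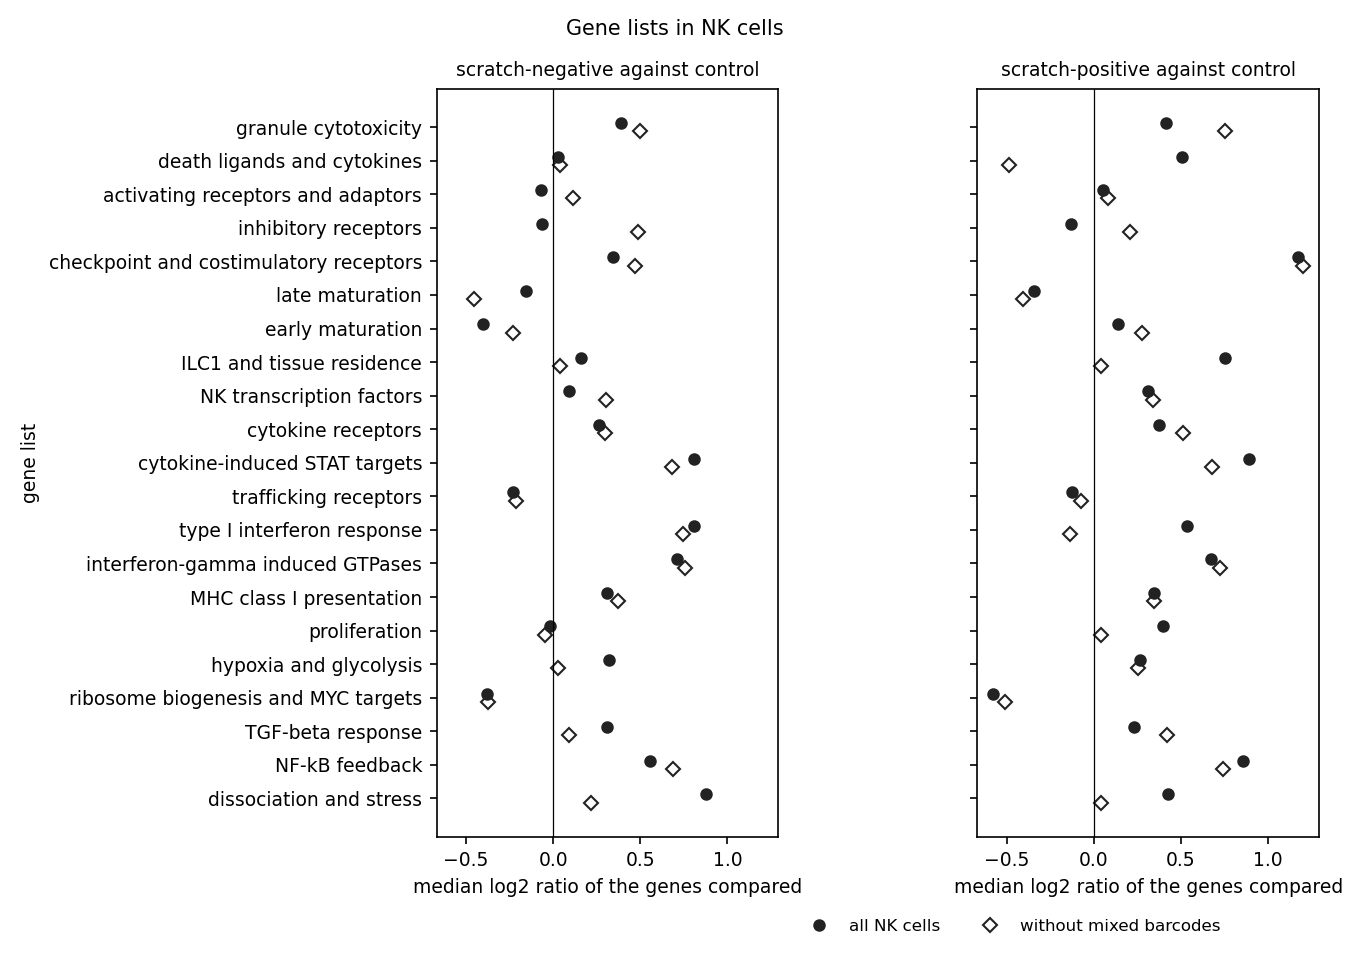
Median log2 ratio of each of 21 gene lists in NK cells, scratch-negative against control and scratch-positive against control, for all members and for unmixed members. The type I interferon list lies at 0.81 and 0.75 in the scratch-negative library, and at 0.53 over all and -0.14 over unmixed scratch-positive members.

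The genes with the largest differences by the interval bound included several of those above. Scratch-negative against control these were Egr1, Gzmb, Cxcl10, Gadd45b, Coq8b, Tnfrsf9, Pdcd1lg2 and Socs2. Egr1, an immediate early factor, went from 8.91-fold over all members to 1.77-fold (not called) among unmixed members. The lowest were Blvrb, Atm, Chchd10, S1pr1, Atpif1, Car2, Spry2 and Ddx18, each also lower among unmixed members. The largest control barcode held 186 of the 290 control UMIs of Blvrb, 394 of 763 of Atpif1, 51 of 84 of Chchd10 and 324 of 759 of Car2. Without it the ratios of Chchd10, Atpif1 and Car2, at 0.605, 0.848 and 0.722, were not called, and that of Blvrb was 0.55. At equal depth Blvrb, Chchd10 and Car2, at 0.832, 0.612 and 0.770, were not called, and without cells with Mki67 or Top2a the 4 ratios were 0.741, 1.0, 0.95 and 1.08 (Blvrb, Chchd10, Atpif1, Car2) and none was called. The lower calls of Atm, S1pr1 and Spry2 held in every setting that could test them, and that of Ddx18 was lost in 1. Spry2, an inhibitor of receptor tyrosine kinase signalling, was at 146, 60.2 and 80.1 CPM, ratio 0.41. Blvrb and Car2 are abundant in erythroid precursors, and the erythroid list summed to 682, 329 and 320 CPM in the members; its part in these ratios was not tested.

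Scratch-positive against control, the highest were Cxcl2, Il1b, H2-Ab1, Ctss, Gbp2, Gzmb, Cd14 and AA467197. Of these, Cxcl2, Il1b and Cd14 are typical of myeloid cells. H2-Ab1 belongs to the MHC class II genes that define a mixed barcode. It was 41.1-fold over all members, and 3.12-fold to 48.2-fold over the alternative settings. Ctss was 9.60-fold, and 1.85-fold to 10.1-fold over those settings. Il1b, the cytokine interleukin-1 beta, was 39.5-fold over all members and 1.59-fold among unmixed members, and Cd14 was 6.37-fold and 1.06-fold. Cxcl2 was 135-fold and 10.1-fold, with 9, 356 and 417 UMIs over all members. Among the lowest were Elane, Blvrb, Prtn3, Vamp5, Snrpg, Grcc10 and Gstp1. The calls of Blvrb and Vamp5 were lost at equal depth (0.634 and 0.732) and that of Prtn3 among unmixed members (0.373). Elane and Prtn3 are granule proteases of early myeloid cells.

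Scratch-positive against scratch-negative, the highest were H2-Ab1, Il1b, Cxcl2, AA467197, Ctss, Lcn2, Faah and Cd14, and among the lowest were Elane, Prtn3, Hist1h2bc, Hist1h2ap, Egr1, Snrpg and Hist1h2ae. Cxcl2, Il1b, Ctss, Lcn2 and Cd14 turned to ratios of 0.318, 0.16, 0.916, 0.485 and 0.57 among unmixed members. H2-Ab1, 17.5-fold over all members, ranged from 1.61-fold to 34.7-fold over the alternative settings.

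At equal depth the Gzmb share of NK cells stood above those of T cells and neutrophils, and the Tnfrsf9 share above that of T cells. Of unmixed NK cells thinned to 2000 UMIs, 37.0%, 66.7% and 69.7% had a Gzmb UMI, in 127, 111 and 66 cells. T cells, chosen by at least 2 UMIs of the Cd3 genes and none of the NK rule genes, had it in 1.02%, 5.34% and 12.1%, and neutrophils in 0.022%, 0.0553% and 0.0946%. Before thinning, the median UMI counts were 9556, 11081 and 7521 in T cells and 9283.5, 10596.5 and 8203.5 in neutrophils. Tnfrsf9 was seen in 6.3%, 25.2% and 25.8% of NK cells and in 1.02%, 7.63% and 9.09% of T cells. S1pr1 was seen in 23.6%, 4.5% and 13.6% of NK cells. Isg15 was seen in 7.09%, 15.3% and 1.52% of NK cells and in 9.9%, 16.5% and 13.8% of neutrophils. Its share in NK cells did not exceed that of neutrophils. The neutrophil share also counts any Isg15 RNA of their own. It therefore does not measure free RNA, whose part was not tested. Bst2 was seen in 8.66%, 22.5% and 4.55% of NK cells against 2.06%, 4.66% and 4.11% of neutrophils, above the neutrophil share in the control and scratch-negative libraries. Xaf1 was seen in 2.36%, 14.4% and 3.03% of NK cells against 1.36%, 3.91% and 2.6%, and Zbp1 in 11.0%, 18.9% and 19.7% against 2.37%, 8.46% and 9.13%. Pdcd1lg2 was seen in 3.15%, 12.6% and 13.6% of NK cells and in at most 0.662% of neutrophils.

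**Figure D5:**
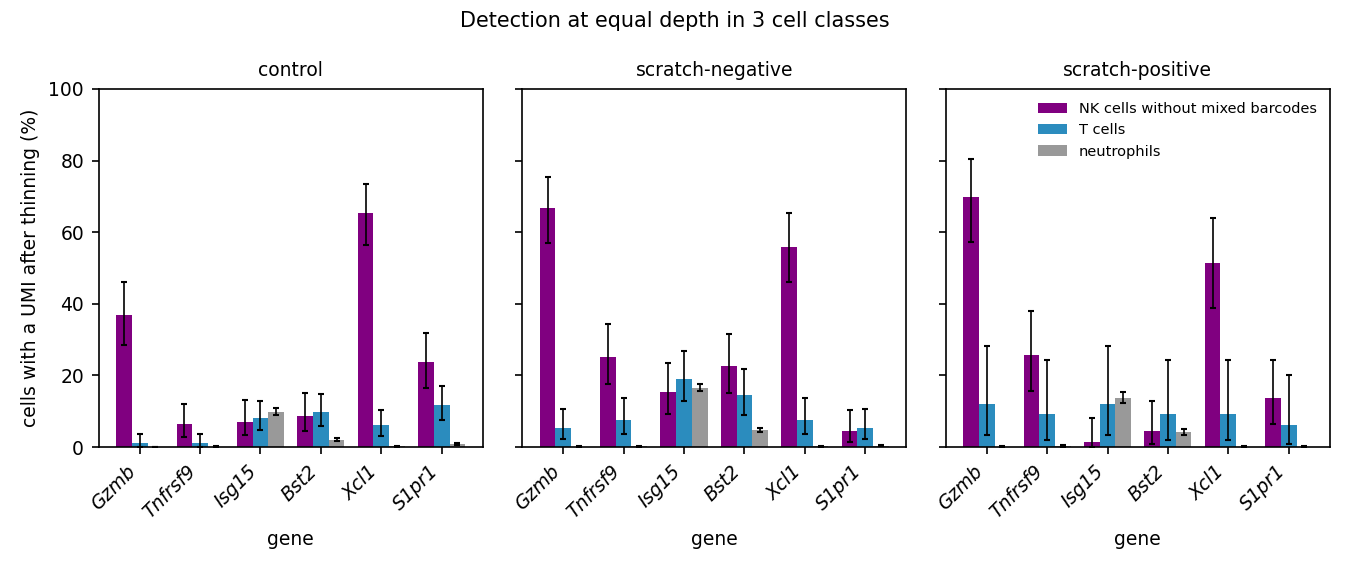
Share of cells with a UMI of each of 6 genes after thinning to 2000 UMIs per cell, for unmixed NK cells, T cells and neutrophils of each library, with exact Clopper-Pearson 95% intervals. Gzmb stands at 37.0%, 66.7% and 69.7% of NK cells and at most 12.1% of T cells, while Isg15 in NK cells lies near the neutrophil share in the control and scratch-negative libraries.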

How the data were processed

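The authors deposited UMI counts per gene and barcode for 3 libraries, and the file headers name Cell Ranger 6.1.2; mm10 is named in the submitters' processing notes. Libraries were made with 10x Genomics 3′ v3.1 chemistry, per the labels' protocols. The counts were used as deposited. Barcodes with at least 500 genes and at most 10% mitochondrial UMIs were kept, 6577, 8151 and 9103 (control, then scratch-negative, then scratch-positive), with median UMIs of 9078, 11817 and 38658. The libraries shared 14 to 27 kept barcodes in each pair, and no NK barcode was shared.

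NK UMIs were summed per library and divided by the NK total. Ratios have exact conditional binomial 95% intervals, levels exact Poisson intervals and shares Clopper-Pearson intervals. Log2 ratios in gene lists add 0.5 UMI to each side. Where 1 library had no UMI, a floor of 3 UMIs was used. Members and gene lists were chosen with earlier results of these data known, and the mixed-barcode thresholds after seeing the data. Named genes are the 8 called highest and the 8 lowest per comparison by the interval bound nearest 1, among genes with a UMI in at least 10% of NK cells of the higher library and at least the level of other cells there, with the rule genes, mitochondrial, ribosomal protein and unnamed models left out, plus the gene lists; some genes that this rule takes are not reported here. Subgroups are Leiden clusters without batch correction. Scrublet's own threshold marked 1, 0 and 581 barcodes, which is too few in the first pair to rely on, so doublets were kept; removal at a fixed rate is among the alternatives. Alternatives changed the rule minimum, gene minimum, doublets, scaling, UMI minimum, fold, depth, cycling or mixed cells and the largest control barcode. The calling procedure was tested on simulated library sums, drawn as a Poisson count per gene. No cells were simulated, so UMIs concentrated in a few cells were not covered. The software was scanpy 1.11.5, pandas 2.3.3, scipy 1.17.1 and numpy 2.4.6 in Python 3.11.15.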

Additional observations from a re-analysis of the deposited data

How the results depend on the processing

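With 1 library per group no replicate could be left out. No paired analysis was possible because each group holds 1 library. NK shares moved beyond their intervals in 5 cases and stayed within them in 16. With a minimum of 1 rule UMI they were 2.90% in the control and 2.42% in the scratch-negative library, over all kept cells 0.802% in scratch-positive, and with cells thinned first 2.94% in the control and 2.26% in scratch-positive. Of 21 gene lists, medians moved by over 1.5-fold in 51 recomputed values and by less in 894.

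Counts of called genes moved most with depth and the UMI minimum. In scratch-negative against control the higher and lower counts, 588 and 463, became 289 and 256 at a minimum of 50 UMIs, 192 and 155 after thinning, 388 and 210 without cells with Mki67 or Top2a, 295 and 281 with at most 10000 UMIs, and 154 and 138 for thinned unmixed members; 293 were higher among unmixed members and 278 lower at a fold of 2. In scratch-positive against control, 516 and 495 became 320 and 327 at 50 UMIs, 237 and 174 after thinning, and 193 and 169 for thinned unmixed members; 298 were higher at a fold of 2, and 286 and 302 lower without cycling cells and with at most 10000 UMIs. Between the tumour libraries, 332 and 359 became 181 and 197 at 50 UMIs, 144 and 142 after thinning, and 109 and 131 for thinned unmixed members; 204 were higher at a fold of 2 and 208 lower among unmixed members.

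Of the recomputed ratios of named genes, 2473 kept their call or lack of one, 264 lost a call, 91 gained one and 53 went to the other side of 1 with a call before or after; uncalled ratios near 1 may cross it. Scratch-negative against control, Car2 became 1.08 without cycling cells, Ncl 1.03 there, 1.02 with at most 10000 UMIs and 1.07 without the largest control barcode, and Hspa1a 0.988 thinned, 0.526 without cycling cells, 0.943 unmixed, 0.389 at most 10000 UMIs and 0.704 thinned and unmixed. Scratch-positive against control, Blvrb became 1.30 without cycling cells, Cd14 0.935 and Il1b 0.744 at most 10000 UMIs, and Ifi27l2a 0.198 unmixed and 0.146 at most 10000 UMIs. Isg15 became 0.180 unmixed, 0.180 at most 10000 UMIs, 0.148 thinned and unmixed and 0.879 with cells weighted equally. Ccl3 became 0.486 thinned, 0.169 unmixed, 0.131 at most 10000 UMIs, 0.123 thinned and unmixed and 0.479 weighted equally. Ccl4 became 0.949 with doublets removed, 0.919, 0.853, 0.632, 0.799 and 0.916 in those orders, Trim30a 0.901 thinned, 0.989 without cycling cells, 0.810 thinned and unmixed and 0.879 weighted equally, and Igtp 0.541 weighted equally. Between the tumour libraries AA467197 became 0.553 and Hist1h2ae 1.38 at most 10000 UMIs, Gzmb 0.628 without cycling cells, and Tnfrsf9 0.997 thinned, 0.980 without cycling cells and 0.992 thinned and unmixed. Unmixed members and those with at most 10000 UMIs gave 0.570 and 0.239 for Cd14, 0.916 and 0.618 for Ctss, 0.318 and 0.182 for Cxcl2, 0.160 and 0.101 for Il1b, and 0.485 and 0.191 for Lcn2; thinned and unmixed, Cxcl2 was 0.712, Il1b 0.467 and Lcn2 0.521. The cause of these changes was not tested. Depth limits genes with few UMIs in the 73 scratch-positive cells.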

Other observations

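Unmixed members were split by whether they held a UMI of Cd27, a receptor of less mature NK cells; at this depth the lack of a Cd27 UMI does not show a maturation state. Gzmb was at 145, 1337 and 1500 CPM with a Cd27 UMI (control, then scratch-negative, then scratch-positive), and at 298, 1688 and 1370 CPM in those without. In the control the 95% Poisson intervals were 107 to 193 CPM with a Cd27 UMI and 253 to 350 CPM without. The tumour libraries exceeded the control in both. Xcl1 was at 1456, 901 and 728 CPM with a Cd27 UMI and 778, 709 and 485 CPM without. In cells with a Gzmb UMI, Tnfrsf9 was at 39.3, 177 and 315 CPM, against 39.5, 67.7 and 125 CPM in cells without.

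Clustering the 344 members of all libraries together gave 6 clusters. The cluster of 35 cells held 33 mixed barcodes and had a median of 20246 UMIs. A cluster of 14 cells, with a median of 16192.5 UMIs, was led by Top2a, Mki67 and histone genes. Other leading genes were S1pr1 in a cluster of 77 cells, Cxcl10, Isg15, Tnfrsf9 and Gzmb in one of 72, Cxcr3, Ccr2 and Ltb in one of 51, and Cma1, Klrg1 and Ly6c2 in one of 95. Sizes by library are not compared, since the leading genes differ between the libraries.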
